A study of Mus musculus with 16 samples.

Results

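The sarcomere is the contractile unit of heart muscle. Thick filaments of myosin, with the myosin light chains and myosin-binding protein C on them, pull on thin filaments of actin that carry tropomyosin and the troponin complex, and titin spans from the Z-disc, where thin filaments are anchored, to the M-band, where thick filaments are crosslinked. Adult cardiomyocytes make these proteins in large amounts throughout life, and inherited variants in many of them cause cardiomyopathy.

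The adult sarcomere and Z-disc genes described here were 33 genes chosen by function, and their transcripts were taken from every probe of the array whose annotated symbol was one of them. Of the 33 genes, 31 had a probe (46 probes), and 37 probes of 26 genes were detected on 3 or more arrays of some group of 4 and could be tested. The whole array held 25697 probes, of which 12246 passed the same filter and represented 8581 named genes. No probe annotated to Tnnt2 (cardiac troponin T) or Flnc (filamin C) was found. Capza2 (an actin-capping subunit), Lmod2 (leiomodin 2, which lengthens thin filaments), Myom2 (an M-band myomesin), Nebl (nebulette) and Nexn (nexilin) had 7 probes between them, none detected on any of the 16 arrays, with deposited signals from -19.1 to 23.7. This says only that those probes gave no signal above the negative controls.

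The study compared the hearts of mice that lacked estrogen receptor alpha in cardiomyocytes with those of WT mice, in both sexes, on Illumina MouseRef-8 v2 BeadChips. The groups were male cs-ERα-/-, female cs-ERα-/-, male WT and female WT, with 4 untreated C57BL/6 mice of 18 weeks and 1 array per mouse in each. The cs-ERα-/- mice carried floxed ERα alleles (exon 3) and Cre recombinase driven by the α-MHC promoter, which acts in cardiomyocytes, so other cells of the heart kept the receptor. The WT mice were ERα flox/flox, and no control carrying Cre alone was described, so the presence of Cre and the loss of the receptor cannot be told apart. RNA came from pulverized cardiac tissue, so fewer cells of a type and less RNA per cell cannot be told apart either.

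Depth on these arrays is limited by their number and by signal over background. Between 11492 and 12610 probes were detected per array, and arrays correlated at 0.988 to 0.995 over all kept probes. The cardiomyocyte markers fixed for the tissue check (Myh6, Actc1, Pln, Atp2a2, Ryr2, Ckm, Mb and Cox6a2) were all detected, 8 of 8, and none was called for genotype. The targeted gene could not check the labels on these arrays: both Esr1 probes were detected on 0 of 8 cs-ERα-/- and 0 of 8 WT arrays, with deposited signals from -18.8 to 11.2. By qRT-PCR the paper reported lower ERα expression in cardiac tissue of knockouts of both sexes.

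No sarcomere or Z-disc gene was called for genotype. The differences of the 26 tested genes, cs-ERα-/- minus WT averaged over the sexes, ran from -0.14 to 0.21 on the log2 scale, 13 positive and 13 negative, with a median of 0.01. Of all 12246 probes 3.74% were called. The median absolute difference was 0.07 among the members and 0.07 over all 8581 genes. Hearts of the genotypes, 8 against 8, overlapped for every one of the 37 member probes, while 0.596% of all probes separated them. Values here and below are normalized log2 signals, each gene by its brightest detected probe unless another is named, and a call is an adjusted p under 0.05 in limma with Benjamini-Hochberg adjustment over all 12246 kept probes. At an unadjusted p under 0.05 the count was 5 of 26 genes (19.2%), against 18.5% of all genes (17.6% of all probes), with Mylk3, Des and Pdlim5 positive and Actn2 and Tpm2 negative. The lowest adjusted p of a member was 0.0829. The ordinary linear model without moderated variances called 0 members too, with 4 at an unadjusted p under 0.05.

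Some probes lay near the top of the range. Probes of Myl2, Myl3, Tnnc1 and Csrp3 gave more than 50% of the highest signal of the array on at least 8 of 16 arrays. Myl2 stood at 98.1 to 100% of that highest signal, and after quantile normalization its 16 arrays shared 3 distinct values. Myl3 stood at 85.5 to 99.5%, Tnnc1 at 82.4 to 98.8% and Csrp3 at 57.0 to 84.3%. The median SD within groups of these 4 genes was 0.06, against 0.11 for the other 22.

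For 22 of the 26 genes the 95% interval of the genotype difference lay within a 1.2-fold change in either direction (0.26 on the log2 scale). They included all 4 genes near the top of the range, and 18 of the other 22. The median standard error was 0.04 for the members and 0.07 for all genes. The spread between hearts of a group was also small, with a median SD of 0.09 over the members, 0.15 over all kept probes and 0.09 over the brightest 25% of them.

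**Figure D1:**
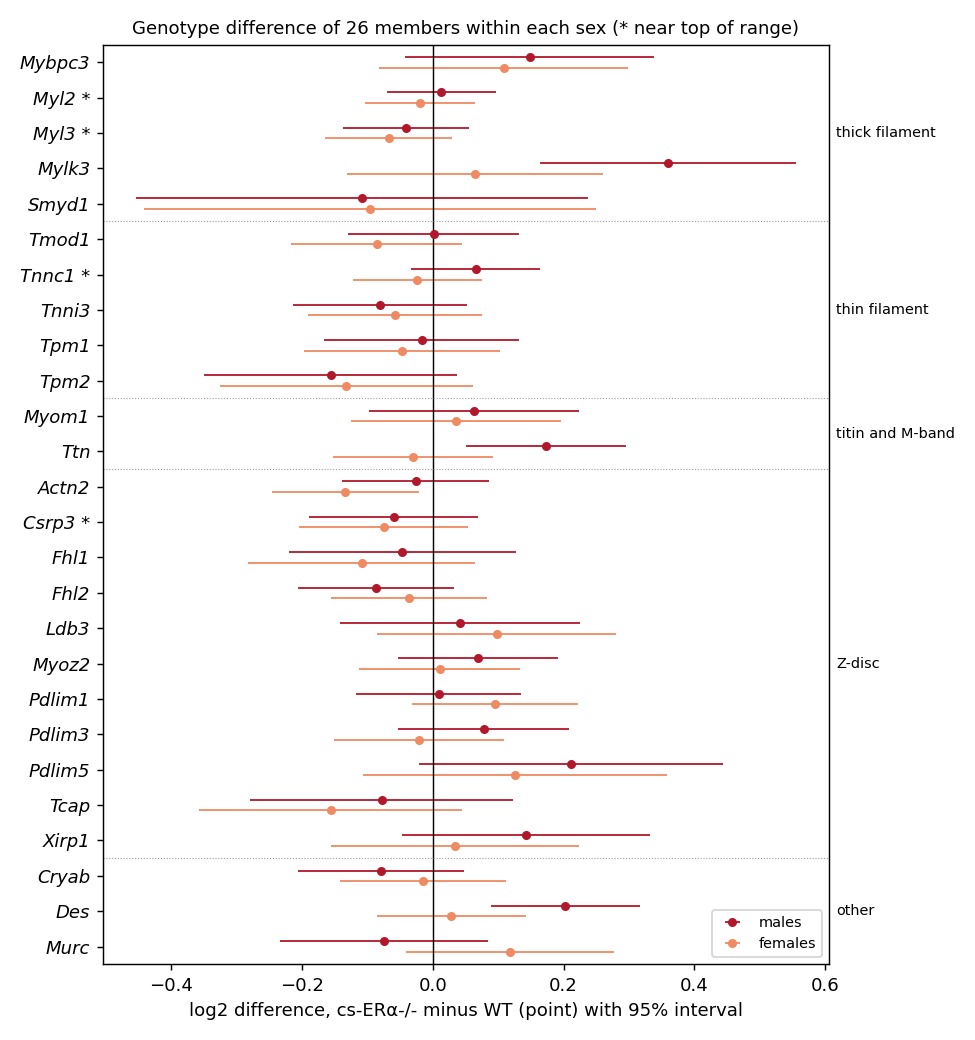
Log2 difference in signal, cs-ERα-/- minus WT, of the 26 tested genes by role (vertical axis) in males (dark red) and females (orange), n = 4 hearts per group; bars are 95% intervals and asterisks mark probes near the top of the range. In males Mylk3 (0.36), Des (0.20) and Ttn (0.17) lie to the right with intervals above 0, and in females only Actn2 (-0.13) has an interval that leaves out 0.

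Promoter sequences of Mylk3, Des, Ttn and Pdlim5 are shown because these 4 members had the smallest unadjusted p-values over all their tested probes and the 5 comparisons, Pdlim5 by a dimmer probe, which also means that they were chosen after their values were seen. The 250 bases before the transcription start come from RefSeq (GRCm38.p6), 5′ to 3′ on the strand of the gene, and where RefSeq lists several starts the most upstream is given. Capitals mark matches on either strand to a MEF2 site, which binds muscle MEF2 factors, or to GGTCA, a half-site of the estrogen response element. Neither a CArG box, the site of serum response factor, nor CATTCC, the MCAT element bound by TEAD factors, was found in these 4 stretches, though the other start that RefSeq lists for Mylk3 has an MCAT element before it.
Mylk3, chr8:85381042-85381291 (- strand): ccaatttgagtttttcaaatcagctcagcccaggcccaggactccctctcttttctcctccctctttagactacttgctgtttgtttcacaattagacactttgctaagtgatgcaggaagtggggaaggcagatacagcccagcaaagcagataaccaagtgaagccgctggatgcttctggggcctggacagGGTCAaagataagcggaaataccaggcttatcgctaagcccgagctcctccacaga
Des, chr1:75360042-75360291 (+ strand): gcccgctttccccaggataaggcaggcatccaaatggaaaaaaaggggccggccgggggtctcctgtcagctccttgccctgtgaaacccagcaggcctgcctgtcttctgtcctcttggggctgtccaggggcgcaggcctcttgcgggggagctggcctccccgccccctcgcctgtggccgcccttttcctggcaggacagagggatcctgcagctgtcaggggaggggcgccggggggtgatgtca
Ttn, chr2:76982548-76982797 (- strand): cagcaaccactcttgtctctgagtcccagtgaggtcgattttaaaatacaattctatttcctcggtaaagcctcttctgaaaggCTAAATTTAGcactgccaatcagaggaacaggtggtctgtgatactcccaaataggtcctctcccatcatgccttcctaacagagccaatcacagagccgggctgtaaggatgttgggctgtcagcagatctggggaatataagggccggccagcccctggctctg
Pdlim5, chr3:142395697-142395946 (- strand): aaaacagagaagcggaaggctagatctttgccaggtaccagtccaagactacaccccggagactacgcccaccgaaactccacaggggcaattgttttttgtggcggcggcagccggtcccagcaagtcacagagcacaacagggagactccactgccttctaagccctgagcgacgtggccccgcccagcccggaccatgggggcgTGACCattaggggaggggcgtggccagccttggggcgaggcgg

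Of the 33 members, 28 had a promoter in the RefSeq table, 40 promoters in all, and the same stretch was searched in each and in all 32851 promoters of the table. A MEF2 site stood in 3 member promoters (Mybpc3, Myoz2 and Ttn), against 0.508% of all promoters, and a CArG box in 8 promoters of 6 members (Fhl1, Fhl2, Ldb3, Myl3, Myom1 and Nebl), against 1.47%. MCAT elements stood in 9 of 40 (12.6% of all), those of Flnc, Myl3, Mylk3, Nebl, Pdlim3, Tmod1, Tnnc1, Tnnt2 and Tpm1, and the half-site GGTCA in 17 of 40 (35.2% of all). The full estrogen response element, GGTCA and TGACC with 3 bases between them, was in 0 of 40, and in 0.0639% of all promoters. Over the member promoters 1 pair of matches to different motifs overlapped.

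Mylk3 encodes the cardiac myosin light chain kinase, which phosphorylates the ventricular regulatory light chain. Its brightest probe gave 11.86, 11.90, 11.54 and 11.97 in male cs-ERα-/- hearts, against 11.45, 11.38, 11.46 and 11.55 in male WT hearts. In females it gave 11.64, 11.58, 11.66 and 11.71 in cs-ERα-/- hearts, against 11.39, 11.64, 11.39 and 11.90 in WT hearts. In males 3 of 4 cs-ERα-/- hearts lay above every WT heart and the remaining one, replicate 3, lay just below the highest of them, while the female groups overlapped. The genotype difference in males was 0.36 (SE 0.09, 1.28-fold, 95% interval 1.12 to 1.47-fold), with an unadjusted p of 0.000965 and an adjusted p of 0.0762 in limma. In females the difference was 0.06 (95% interval -0.13 to 0.26), and averaged over the sexes it was 0.21 (SE 0.07, adjusted p = 0.0829 in limma). The 2 dimmer probes of Mylk3 differed by 0.27 and 0.26 in males, and by -0.11 and 0.05 in females. The probe with 0.27 gave 8.96, 8.79, 8.64 and 8.79 in male cs-ERα-/- hearts, against 8.64, 8.41, 8.41 and 8.62 in male WT hearts, and by unrounded values these groups just did not overlap.

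Leaving out 1 array at a time moved the adjusted p of Mylk3 in limma both ways. It ranged from 0.0157 to 0.212 in males and from 0.00931 to 0.174 averaged over the sexes. Of these omissions, only those named next passed the threshold. Without replicate 3 of male cs-ERα-/- the adjusted p in limma was 0.0157 in males and 0.0219 averaged over the sexes, and without replicate 4 of female WT it was 0.0239 and 0.00931. Fitted on the male arrays alone, the male difference had an adjusted p of 0.0356, and with arrays scaled to a common median it was 0.27 with an adjusted p of 0.948. The difference of the male and the female effect was -0.30 (SE 0.13, unadjusted p = 0.0377, adjusted p = 0.999 in limma).

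Des encodes desmin, the intermediate filament that ties neighbouring Z-discs together. It gave 13.99, 14.24, 14.17 and 13.99 in male cs-ERα-/- hearts, against 13.97, 13.84, 13.88 and 13.89 in male WT hearts, and these groups did not overlap. In females the values were 14.05, 14.01, 14.00 and 14.07 in cs-ERα-/- hearts, against 14.04, 14.00, 14.03 and 13.95 in WT hearts. All 8 female hearts lay between 13.95 and 14.07 and the female groups overlapped. The difference in males was 0.20 (SE 0.05, 1.15-fold), with an adjusted p of 0.0862 in limma, and in females it was 0.03 (95% interval -0.09 to 0.14). Averaged over the sexes it was 0.12 (adjusted p = 0.103 in limma).

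Ttn encodes titin, the giant spring of the sarcomere. It gave 14.64, 14.74, 14.45 and 14.50 in male cs-ERα-/- hearts, against 14.45, 14.35, 14.42 and 14.42 in male WT hearts. In females it gave 14.58, 14.47, 14.62 and 14.51 in cs-ERα-/- hearts, against 14.69, 14.53, 14.53 and 14.56 in WT hearts. The lowest male cs-ERα-/- heart lay level with the highest male WT heart, and the female groups overlapped. The male difference was 0.17 (SE 0.06, adjusted p = 0.202 in limma) and the female difference -0.03 (95% interval -0.15 to 0.09).

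**Figure D2:**
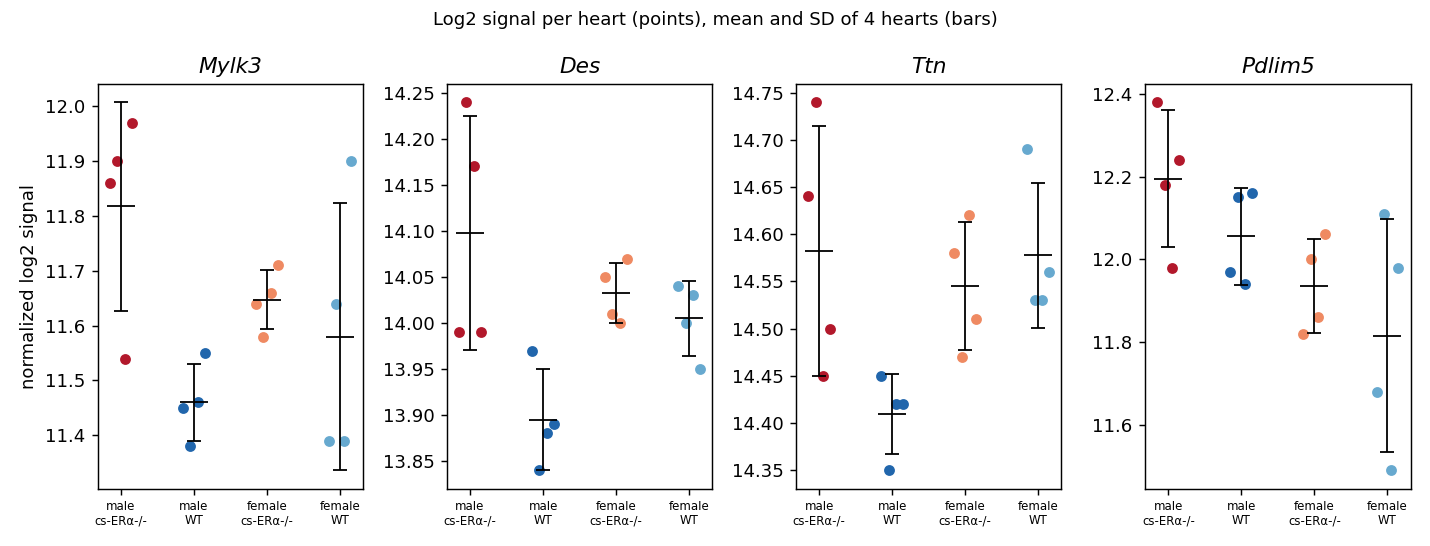
Normalized log2 signal of Mylk3, Des, Ttn and Pdlim5 (the probe of lowest p for sex) in each heart (points) of the 4 groups, with the mean and SD of 4 hearts (bars); each panel has its own vertical axis, which does not start at 0. Male cs-ERα-/- hearts of Des lie between 13.99 and 14.24, above the male WT hearts at 13.84 to 13.97, and the other groups overlap within each sex.

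Among the rest of the thick filament, no gene was called. Mybpc3, cardiac myosin-binding protein C, gave 14.04 to 14.62 over all arrays, with a difference of 0.13 (95% interval -0.01 to 0.26) averaged over the sexes. Myl2 and Myl3, the ventricular regulatory and essential light chains, differed by -0.0029 (95% interval -0.06 to 0.06) and -0.05 (95% interval -0.12 to 0.01). Smyd1, a muscle-restricted methyltransferase that assists myosin assembly, differed by -0.10 with the widest interval of the group, -0.35 to 0.14, at a level of 6.70 to 7.64.

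No thin filament gene was called, with 4 of 5 tested differences negative and a median of -0.04. Tpm2, beta-tropomyosin, was measured at 7.64, 7.76, 8.03 and 7.94 in male cs-ERα-/- hearts, against 7.89, 8.06, 7.93 and 8.11 in male WT hearts. In females it was measured at 7.96, 7.94, 8.02 and 8.08 in cs-ERα-/- hearts, against 7.98, 8.13, 8.26 and 8.17 in WT hearts. The groups overlapped in both sexes. Its genotype difference was -0.14 (95% interval -0.28 to -0.01, adjusted p = 0.253 in limma), and 2 more Tpm2 probes did not pass the detection filter. Tnni3, cardiac troponin I, differed by -0.07 (95% interval -0.16 to 0.03), and Tnnc1, cardiac troponin C, by 0.02 (-0.05 to 0.09). Tpm1, alpha-tropomyosin, differed by -0.03 (95% interval -0.14 to 0.07) and Tmod1, which caps the pointed ends of thin filaments, by -0.04 (-0.13 to 0.05). At the M-band Myom1, a myomesin that crosslinks myosin, differed by 0.05 (95% interval -0.06 to 0.16).

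Of the 14 Z-disc genes, 11 were tested and none was called, with 6 differences positive and 5 negative. Actn2, alpha-actinin 2, crosslinks actin at the Z-disc. In males it gave 14.78, 14.87, 14.66 and 14.71 in cs-ERα-/- hearts, against 14.79, 14.76, 14.76 and 14.81 in WT hearts. In females it gave 14.77, 14.72, 14.66 and 14.58 in cs-ERα-/- hearts, against 14.83, 14.71, 14.91 and 14.82 in WT hearts. The groups overlapped in both sexes. The female difference was -0.13 (SE 0.05, adjusted p = 0.349 in limma), the lowest adjusted p of a member in females, and the male difference was -0.03 (95% interval -0.14 to 0.09).

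Tcap, telethonin, which binds the end of titin, differed by -0.12 (95% interval -0.26 to 0.03) averaged over the sexes. Myoz2, a calcineurin-binding calsarcin, differed by 0.04 (95% interval -0.05 to 0.13) and Ldb3, a PDZ-LIM protein also called Cypher, by 0.07 (-0.06 to 0.20). Pdlim1 and Pdlim3, of the same PDZ-LIM family, differed by 0.05 (95% interval -0.04 to 0.14) and 0.03 (-0.06 to 0.12). Each of these intervals held 0. Xirp1, an actin-binding protein of the intercalated disc, differed by 0.09 (95% interval -0.05 to 0.22). The LIM proteins Fhl1 and Fhl2 differed by -0.08 (95% interval -0.20 to 0.05) and -0.06 (-0.15 to 0.02).

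Csrp3, the muscle LIM protein, had 3 probes that did not move alike. Its brightest probe differed by -0.07 (95% interval -0.16 to 0.02) averaged over the sexes, and the dimmest by 0.00 (-0.08 to 0.08). The dimmest gave 12.50, 12.50, 12.32 and 12.41 in male cs-ERα-/- hearts, against 12.54, 12.54, 12.58 and 12.50 in male WT hearts. It gave 12.56, 12.56, 12.49 and 12.52 in female cs-ERα-/- hearts, against 12.55, 12.36, 12.33 and 12.46 in female WT hearts. By unrounded values the male groups did not overlap and cs-ERα-/- was the lower, while the female groups overlapped. The male difference was -0.11 and the female difference 0.11, and the difference between them was 0.22 (unadjusted p = 0.0106, adjusted p = 0.999 in limma). The middle probe behaved likewise, with 0.18 between the sexes (unadjusted p = 0.0266), and the brightest probe gave -0.02 (95% interval -0.20 to 0.17).

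Pdlim5, a PDZ-LIM protein that binds protein kinase C at the Z-disc, was the member with the most probes, 4 of them tested. Averaged over the sexes they differed by 0.17, 0.13, 0.02 and 0.43 in order of falling brightness. The brightest gave 12.77, 12.73, 12.54 and 12.98 in male cs-ERα-/- hearts, against 12.49, 12.55, 12.40 and 12.73 in male WT hearts. It gave 12.29, 12.63, 12.71 and 12.73 in female cs-ERα-/- hearts, against 12.20, 12.70, 12.29 and 12.67 in female WT hearts. Neither sex had groups apart by this probe. The dimmest, detected on 15 of 16 arrays, gave 5.93, 6.32, 6.04 and 6.43 in male cs-ERα-/- hearts, against 5.63, 6.03, 5.58 and 5.55 in male WT hearts. It gave 6.03, 5.66, 5.95 and 6.53 in female cs-ERα-/- hearts, against 4.98, 5.85, 5.84 and 6.01 in female WT hearts. The groups overlapped in both sexes. Its difference of 0.43 had an SE of 0.14 and an adjusted p of 0.105 in limma, and that of the brightest probe an adjusted p of 0.269.

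**Figure D3:**
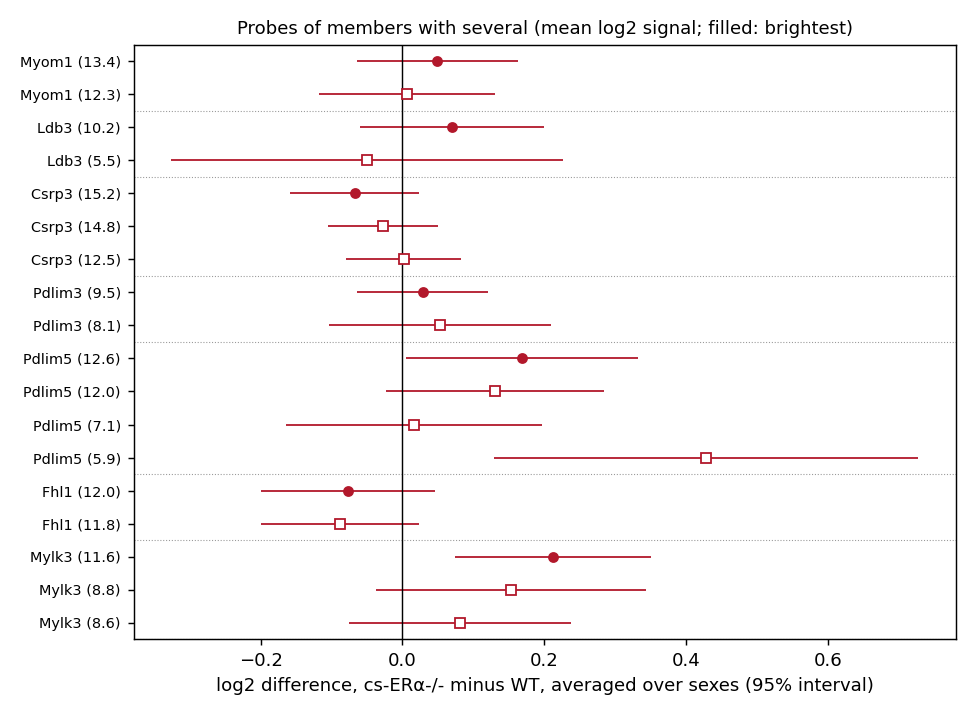
Log2 difference in signal, cs-ERα-/- minus WT averaged over the sexes over 16 hearts, for each tested probe of the 7 members with several, with 95% intervals; the mean log2 signal of the probe stands in brackets and the filled circle is the brightest probe. The Pdlim5 probes spread from 0.02 to 0.43, and the Ldb3 and Csrp3 probes lie on both sides of 0.

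Cryab, the small heat shock protein that chaperones desmin, differed by -0.05 (95% interval -0.14 to 0.04). Murc, listed now as Cavin4, a caveolar protein of muscle, differed by 0.02 (95% interval -0.09 to 0.13) averaged over the sexes, with -0.07 in males and 0.12 in females.

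Within each sex the genotype comparison called 0 members as well, against 0.955% of all probes in males and 0.71% in females. At an unadjusted p under 0.05 there were 3 of 26 genes in males (11.5%, against 12.7% of all genes and 12% of all probes), all positive (Mylk3, Des and Ttn), and 1 in females (3.85%, against 11.4% and 10.6%), Actn2. Non-overlapping groups were found for 3 of the 37 member probes in males, those of Des, Mylk3 and Csrp3, and for 0 in females, against 6.88% and 5.99% of all probes. Differences ran from -0.16 to 0.36 in males and from -0.16 to 0.13 in females. The 95% interval lay within a 1.2-fold change for 17 genes in males and 18 in females, the 4 near the top of the range among them in each sex. The ordinary linear model called 0 members in either sex.

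The effect of genotype was also set against sex directly. The difference of the 2 effects (female minus male) called 0 members, and 0 of all 12246 probes. At an unadjusted p under 0.05 there were 3 of 26 genes (11.5%, against 3.72% of all genes), Mylk3, Des and Ttn, each with the smaller effect in females. By any probe 4 members were at that level, in limma and in the ordinary linear model alike, and the latter called 0. The intervals were wider here: they lay within a 1.2-fold change for 10 of 26 genes, 4 of them near the top of the range, and for the rest a difference of that size between the sexes lay within the interval.

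Female and male hearts, averaged over genotypes, did not differ by a call in any member, against 1.27% of all probes. Hearts of the sexes overlapped for every member probe, while 0.327% of all probes separated them. The 26 differences (female minus male) ran from -0.12 to 0.14, 10 positive and 16 negative, and for 23 genes the interval lay within a 1.2-fold change, including the 4 near the top of the range. At an unadjusted p under 0.05 there was 1 gene by its brightest probe (3.85%, against 13.3% of all genes and 12.9% of all probes), Tpm2, at 0.14 (95% interval 0.01 to 0.28, adjusted p = 0.348 in limma). By any probe 2 members were at that level in limma and 3 in the ordinary linear model, which called 0. The median difference of the members was -0.02, and with arrays scaled to a common median it turned to 0.02 while the median of all probes moved to 0.04.

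The second probe of Pdlim5 had the lowest p of a member for sex. It gave 11.82, 12.00, 11.86 and 12.06 in female cs-ERα-/- hearts, against 12.38, 12.18, 11.98 and 12.24 in male cs-ERα-/- hearts. It gave 11.68, 12.11, 11.49 and 11.98 in female WT hearts, against 11.97, 12.15, 11.94 and 12.16 in male WT hearts. The sexes overlapped in both genotypes. The difference was -0.25 (SE 0.07, adjusted p = 0.107 in limma), and that of the brightest probe -0.12 (95% interval -0.29 to 0.04). Without replicate 2 of female WT the adjusted p of the second probe in limma was 0.0291, and without replicate 3 of male cs-ERα-/- it was 0.0483. Leaving out any other array gave no call, with an adjusted p up to 0.222. With arrays scaled to a common median the adjusted p in limma was 0.718.

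**Figure D4:**
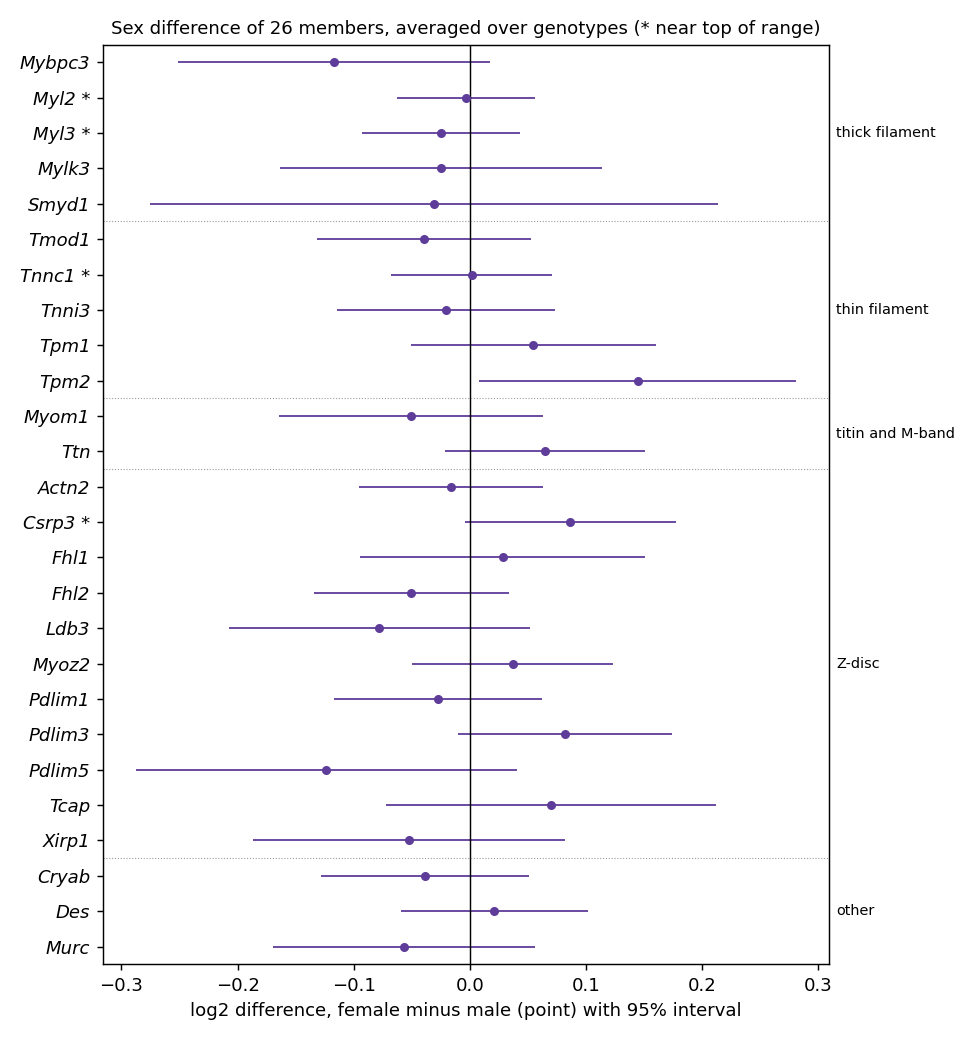
Log2 difference in signal, female minus male averaged over genotypes (8 against 8 hearts), of the 26 tested genes by role, with 95% intervals; asterisks mark probes near the top of the range. Tpm2 (0.14) is the gene whose interval leaves out 0, and the other points lie between -0.12 and 0.09.

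Other genes of the same structures did pass the test. In a wider list of 73 sarcomere, chaperone and costamere genes, 54 were tested, of which 4 rose and 1 fell in cs-ERα-/- hearts (2.43% and 1.31% of all probes), with a median difference of -0.01 over the list and of -0.0041 over all genes. In this list and those below a gene counted as called when any of its probes was, while the shares are of probes. Ankrd1, a stress-responsive ankyrin repeat protein that binds titin, rose by both its probes, and its brightest had a mean of 14.94 ± 0.20 in cs-ERα-/- hearts, against 14.44 ± 0.20 in WT hearts (SD, 8 hearts each). The Ankrd1 difference was 0.50 (adjusted p = 0.000274 in limma), and 0.92 by the dimmer probe (adjusted p = 2.16e-06). The call held under each of 24 alternative settings for both probes. In males the dimmer probe differed by 1.24 and in females by 0.61, both called, the female call being lost under 8 of 25 settings. The brightest probe was called in males, a call lost under 1 of 25 settings, and was not called in females.

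The other calls of that list were smaller. Hspa1l, a constitutive Hsp70 family member, was higher by 0.45 (adjusted p = 0.0171 in limma) and Pdlim4, a PDZ-LIM protein, lower by 0.32 (adjusted p = 0.0187). Hspb1, the small heat shock protein Hsp27, was higher by 0.14 (adjusted p = 0.0305) and Vcl, vinculin of the costamere, by 0.17 (adjusted p = 0.0485). With arrays scaled to a common median all 4 lost the call, with adjusted p of 0.0777, 0.116, 0.830 and 0.780. Vcl lost it under 21 of 24 settings and Hspb1 under 9, of which leaving out 1 array made 14 and 6. For sex 0 of the 54 rose and 2 fell in females (0.637% and 0.629% of all probes): Myot, myotilin of the Z-disc, by 0.49 (adjusted p = 0.0300) and Ankrd23, a titin-binding relative of Ankrd1, by 0.35 (adjusted p = 0.0134). Both were lost with median scaling, at 0.157 and 0.405, and Myot also on leaving out any of 8 arrays.

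Isoforms of contractile proteins other than the members were also called. Of 17 listed, 11 were tested and 5 rose in cs-ERα-/- hearts (2.43% of all probes). The median difference was 0.50 over those tested, against -0.0041 over all genes. Acta1, skeletal alpha-actin, had a mean of 12.82 ± 0.49 in cs-ERα-/- hearts, against 11.79 ± 0.83 in WT hearts (SD, 8 hearts each), a difference of 1.03 (adjusted p = 0.00124 in limma). Mybpc2, the fast skeletal myosin-binding protein C, had a mean of 8.87 ± 0.17 in cs-ERα-/- hearts, against 7.99 ± 0.20 in WT hearts, a difference of 0.87 (adjusted p = 8.10e-08). It was the gene of this list called in both sexes, by 1.09 in males and 0.66 in females, and its calls held under every setting tried.

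Tnni2, fast skeletal troponin I, was higher by 0.68 (adjusted p = 0.00218), Acta2, smooth muscle alpha-actin, by 0.52 (adjusted p = 0.00372) and Mybphl, a relative of myosin-binding protein H, by 1.07 (adjusted p = 0.0399). The Mybphl call was lost under 12 of 24 settings, 10 of them leaving out 1 array. The calls of Acta1 and Tnni2 for genotype held under all 24. That of the Acta2 probe above was lost under 1, the ordinary linear model (adjusted p = 0.0556). Other Acta2 probes were called too. The probe that differed by 0.55 lost the call under 1 setting. The probes that differed by 0.47 and 0.44 lost it under 7 of 24 each, 4 of them leaving out 1 array. Within the sexes Acta1, Acta2 and Tnni2 were called for genotype in females and not in males, and Mybphl in neither. In females 0.71% of all probes were called, and in males 0.955%. The female calls of Acta1, Acta2 and Tnni2 were lost under 1, 15 and 5 of 25 settings. No gene of the list was called for the difference between the sexes in the genotype effect. Acta1 was lower in females than in males by 0.88 (adjusted p = 0.0115 in limma). This sex call was lost under 2 of 24 settings. They were limma without the intensity trend (adjusted p = 0.05755) and the ordinary linear model (adjusted p = 0.142). The gene lists were drawn up with earlier results of these data known, so their counts are not independent of them.

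Markers of other tissues moved beside those isoforms. Of all probes, 2.43% rose and 1.31% fell for genotype. Of 12 skeletal muscle markers 5 were tested and 4 rose for genotype (Acta1, Atp2a1, Mybpc2 and Tnni2, of which 3 are also on the isoform list), while Mybpc1, Tnnt3, Tnnc2, Myh1, Myh4 and Actn3 were not detected. The summed log2 signal of the tested skeletal muscle probes was 40.1 to 43.7 in male cs-ERα-/- hearts and 37.9 to 40.2 in male WT hearts, and 41.1 to 43.5 in female cs-ERα-/- hearts and 37.3 to 38.4 in female WT hearts. Of 8 tested myeloid markers 6 rose (C1qb, C1qc, Fcgr3, Laptm5, Lyz2 and Mrc1). Of 6 smooth muscle markers 4 were tested, and Tagln and Cnn1 were not detected. Acta2, also on the isoform list, was the 1 that was called. Of the 4 differences 2 were positive, with a median of -0.0059. Of 7 fibroblast markers Dcn rose, and of 6 endothelial markers none did. Of 6 atrial markers 3 were tested, and Nppa, atrial natriuretic peptide, rose for genotype by 1.02 (adjusted p = 3.03e-06 in limma) and in each sex, while Myl4 and Dkk3 were not called for genotype and Sln, Myl7 and Bmp10 were not detected. The summed log2 signal of the tested atrial probes was 35.1 to 36.4 in male cs-ERα-/- hearts and 33.5 to 35.0 in male WT hearts, which did not overlap, and 37.7 to 45.4 in female cs-ERα-/- hearts and 35.8 to 38.6 in female WT hearts, which did. None of 4 lymphocyte markers was detected, and none of the 2 red blood cell and 1 adipose tissue markers tested was called for genotype. The part of these markers in the isoform calls was not tested. The summed signal of the cardiomyocyte marker probes was 164.5 to 166.7 in male cs-ERα-/- hearts and 165.6 to 165.8 in male WT hearts, and 165.5 to 166.0 in female cs-ERα-/- hearts and 165.6 to 166.3 in female WT hearts.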

How the data were processed

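Total RNA of 16 mouse hearts, 4 per group by the labels, was hybridised to 1 array each. The deposited table holds bead-averaged signal intensities with detection p-values, per the file headers, exported from Genome Studio by the authors without normalization, and some values fall below 0. The authors' own normalized values (cubic spline) were an alternative. Signals were background-corrected with normexp from the detection p-values, offset by 16, quantile normalized and put on a log2 scale (limma 3.58.1 in R 4.3.3). A probe was kept with a detection p under 0.05 on 3 of 4 arrays of any group. Probe symbols came from GEO's platform annotation, updated by gene ID, and 1719 probes had none. The model had a mean per group and moderated variances with an intensity trend. It gave 5 comparisons: genotype, sex, their interaction, and genotype in each sex. The paper divided the 16 samples between BeadChips, and its model had a batch term. The chip of each array is not given in the sources used here, so no chip term could be fitted. The p-values measure the spread between arrays of 1 mouse each, with any chip difference included. Every member is named, and values per heart are given for members with an unadjusted p under 0.05 in a comparison, a rule applied after values were seen because none was called. Members and gene lists were chosen with earlier results of these data known. The procedure was tested on simulated data. Alternatives varied the normalization, filter, variance model and arrays. Python 3.11 and matplotlib drew the plots.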

Additional observations from a re-analysis of the deposited data

Results flagged for a closer look

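In 11 of 148 combinations of member probe and group, 1 heart stood apart from the other 3 by Dixon's criterion (its gap to the nearest heart over the whole range above 0.829), where chance gives about 1 in 20. For Mybpc3 replicate 4 of female cs-ERα-/- had 14.04, with the nearest heart at 14.47 (ratio 0.962), and for Csrp3 replicate 1 of male cs-ERα-/- had 15.38, with the nearest at 15.11 (0.905). For Ldb3 replicate 4 of male cs-ERα-/- had 10.39 against 10.28 (0.922), for Fhl1 replicate 2 of female WT had 12.27 against 12.02 (0.982), and for Myoz2 replicate 1 of female cs-ERα-/- had 14.40 against 14.31 (0.833). A dimmer probe of Pdlim3 gave 8.36 in replicate 4 of female cs-ERα-/-, against 8.06 (0.839). The dimmest Pdlim5 probe gave 6.03 in replicate 2 of male WT, against 5.63 (0.8395), and 4.98 in replicate 1 of female WT, against 5.84 (0.834). At the top of the range, Tnnc1 in replicate 2 of female WT (15.75 against 15.65), Myl2 in replicate 1 of male cs-ERα-/- and Myl2 in replicate 3 of female WT (both 15.75 against 15.80) had a ratio of 1, because the other 3 hearts held the same normalized value.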

How the results depend on the processing

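The count of members called was 0 for genotype, sex and genotype in males, and it became 1 in each with the replicate number as a block (Mylk3, adjusted p = 0.0305 for genotype and 0.0233 in males, and Pdlim5, 0.0216 for sex, in limma). It also became 1 (Mylk3) for males fitted on male arrays alone. Leaving out 1 array at a time gave 0 to 1 in these 3 comparisons. In females and for the interaction the count was 0 throughout. By the labels the numbers only name the hearts. Of 24 pairs of same-numbered arrays 7 had deviations correlated above 0.1 (range -0.11 to 0.20). Every pair of replicate 4 was among them, at 0.11 to 0.20. The remaining pair was female WT with male cs-ERα-/- of replicate 3 (0.16). Of 16 arrays 10 correlated best with their own number, a hint from the data that same-numbered arrays share something. What they share was not tested. Over 185 member differences and 4494 alternative values, 4288 kept their direction and side of the threshold. Another 10 became calls in the same direction and 0 in the opposite one. No member was called to begin with, so no call could be lost. The other 196 were uncalled values that changed sign, none of them where the unadjusted p was under 0.05. Over all probes 458 were called for genotype, but 131 with median scaling (65.1% and 77.1% of them higher), and 155 for sex, against 79. The ordinary linear model called 323 and 80. Signal near the top of the range (Myl2, Myl3, Tnnc1 and Csrp3) and undetected probes limit what could be seen.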
